A study of Trichoderma reesei with 18 samples.

Results

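The interaction between deletion of TR80186 and light was examined in mycelium of Trichoderma reesei, a filamentous fungus grown industrially for its cellulases. For every gene, the response to light in the deletion mutant was set against the response to light in the wild type. Of 10879 gene rows in the count table, 9079 had enough reads to be tested, and 12 of the 18 libraries of the series form the contrast. The mutant, called Δ80186 here, lacks TR80186 in the QM6a background, and WT is QM6a itself. Each strain was cultivated for 96 h at 28 °C on cellulose in constant light or constant darkness, which gives 4 groups of 3 libraries: Δ80186 in light, Δ80186 in darkness, WT in light and WT in darkness. The other 6 libraries, of the deletion mutant Δ21168 under the same 2 conditions, entered the fit to help estimate the spread and are on neither side of the contrast. The labels name neither separate cultures behind the 3 libraries of a group nor a second clone or a complemented strain of Δ80186, so p-values measure only the spread between these libraries, which may be technical.

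The series title gives TR80186 as the MAP kinase kinase of the HOG pathway. MAP kinase cascades pass a signal through kinases that phosphorylate each other in turn, and the HOG (high osmolarity glycerol) branch is best known from budding yeast, where the kinase kinase Pbs2 activates the kinase Hog1 under osmotic stress. In Aspergillus nidulans, a red-light photoreceptor of the phytochrome type acts through the HOG branch, and in T. reesei light is known to alter the expression of many genes, cellulase genes among them. The contrast therefore asks which genes answer to light differently when this kinase kinase is missing.

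An interaction is given on the log2 scale as the change from darkness to light in Δ80186 minus the same change in WT. A positive value means that light left the gene higher in Δ80186 than the WT response would have, and a negative value that it left the gene lower. Genes with a Benjamini-Hochberg adjusted p under 0.05 in edgeR's quasi-likelihood test are called. Levels are in CPM, counts scaled to library sizes adjusted by TMM factors. CPM does not correct for gene length, so levels are compared between libraries and not between genes. In these bulk samples, fewer cells of a type and less RNA per cell cannot be told apart.

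Library totals were 11626426 to 13538215 counts in Δ80186 in light, 13953910 to 15541825 in Δ80186 in darkness, 11249966 to 15672321 in WT in light and 13053446 to 14353793 in WT in darkness. Libraries of a group had rank correlations of 0.99 to 0.997, and no library stood apart from its group. Row identifiers are built from a letter, a number and a final W or C. The reference table used here paired 0 of them with a gene name, so cellulase, photoreceptor and stress genes could not be looked up, and the labelled tissue could not be checked against markers. A further 3 rows carry names of the mating type locus. Of these, mat1-1-1 had 1 read in each of 2 WT libraries in light and 0 in the other libraries of the contrast, while mat1-1-2 and mat1-1-3 had 0 reads in all 12. The row that lost its reads in the mutant was TrD0367C, which had 0 reads in each Δ80186 library in light and 0.0697, 0.0638 and 0.146 CPM in Δ80186 in darkness, against 157, 146 and 123 CPM in WT in light and 142, 123 and 127 CPM in WT in darkness. It was picked out by this loss, which therefore cannot serve to check the genotype, and its interaction was not called (adjusted p = 0.0569; 0.05 to 0.17 over 20 alternatives).

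The light response of 3798 genes differed between Δ80186 and WT, which is 41.8% of the genes tested. The interaction was positive for 1857 genes (20.5%) and negative for 1941 (21.4%), and it was at least 2-fold for 1482 genes (16.3%), 747 positive and 735 negative. The median size among called genes was 0.81 on the log2 scale, against 0.44 over all genes tested. At least 4-fold interactions were found for 585 genes, 306 positive and 279 negative, and at least 8-fold ones for 262, 143 positive and 119 negative. The signs were close to balanced and neither prevailed under all settings: 48.9% of called genes were positive under TMM factors, 53.9% with DESeq2 size factors in the same test and 44.3% with library totals. Of the 262 interactions of at least 8-fold, 158 had fewer than 30 reads in at least 1 of the 4 groups, so their sizes are imprecise.

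**Figure D1:**
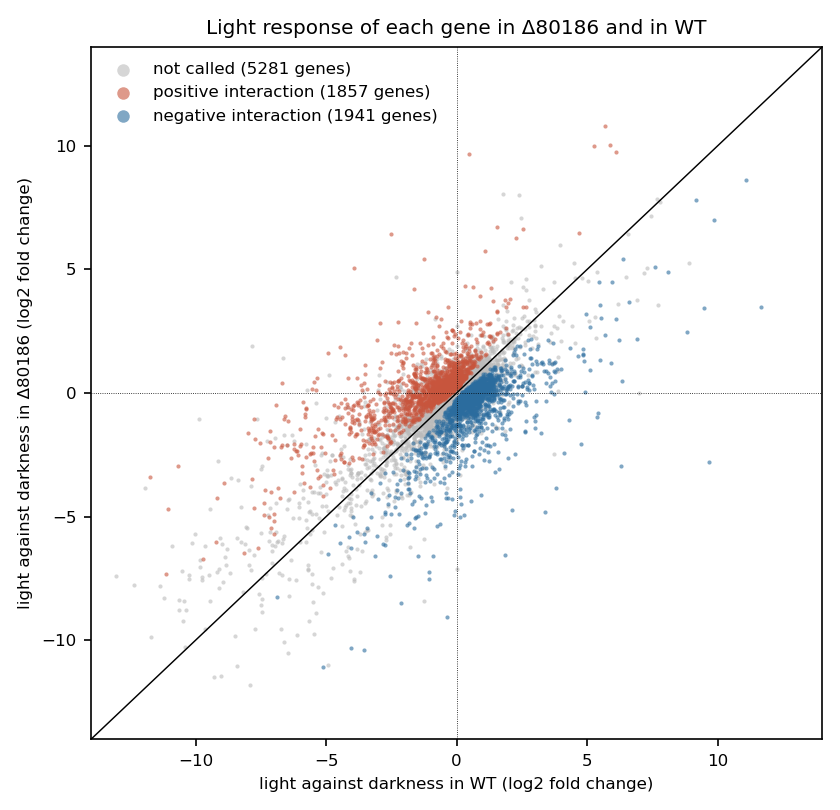
Log2 fold change of light against darkness in Δ80186 (vertical axis) and in WT (horizontal axis) for 9079 genes, with 1 point per gene. Red points are the 1857 genes with a positive interaction and blue points the 1941 with a negative one; red genes lie above the diagonal of equal response, many of them left of 0, and blue genes lie below it, many of them right of 0.

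Most called genes were changed by light in WT, and in Δ80186 changed less, did not pass the threshold or changed the opposite way. Light was called for 4836 genes in Δ80186 (53.3%) and for 5543 in WT (61.1%). Of the 2947 genes raised by light in WT, 1346 had a negative interaction and 148 a positive one. Of the 2596 genes lowered by light in WT, 1226 had a positive interaction and 191 a negative one. These classes use WT libraries that also enter the contrast, so a WT value that is high by error pushes both in this direction. With the light class taken from Δ21168, where light was called for 5469 genes (60.2%), 992 of the 2770 raised genes had a negative interaction and 297 a positive one, while 967 of the 2699 lowered genes had a positive interaction and 377 a negative one. Among the 3610 genes not called in Δ21168 the signs were close to even, at 593 positive and 572 negative.

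The 3798 genes fell into several patterns. Of 1288 tested genes raised by light in WT without a call in Δ80186, 750 had a called interaction. Their median change was -0.02 on the log2 scale in Δ80186, against 0.67 in WT. Of 1397 raised in both strains, 334 were raised less in Δ80186, with medians of 0.45 in Δ80186 and 1.13 in WT. On the lowered side, 858 tested genes were lowered in WT without a call in Δ80186. Of these, 528 had a called interaction, with medians of 0.04 in Δ80186 and -0.80 in WT. Of 1415 lowered in both strains, 375 were lowered less in Δ80186, with medians of -1.01 in Δ80186 and -2.43 in WT. Light raised 812 tested genes in Δ80186 with no call in WT, and 445 of them had a called interaction. It lowered 627 in Δ80186 with no call in WT, and 373 of them had a called interaction. A stronger response in Δ80186 was found for 148 of the 1397 raised and 191 of the 1415 lowered in both strains. Of 2097 tested genes with no call of light in either strain, 69 had a called interaction.

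Light acted in opposite directions in 585 genes. It raised 323 of them in Δ80186 and lowered them in WT, with median changes of 0.44 in Δ80186 and -0.47 in WT. It lowered the other 262 in Δ80186 and raised them in WT, with medians of -0.58 in Δ80186 and 0.66 in WT. Most of these turns were shallow: both responses were at least 2-fold in 61 genes, 29 raised in Δ80186 and 32 lowered in Δ80186.

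**Figure D2:**
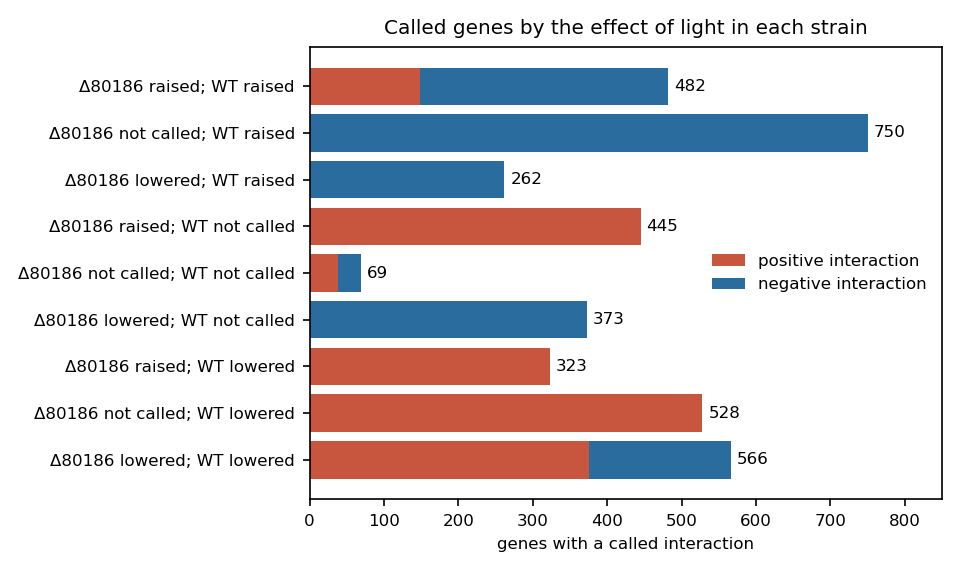
Number of genes with a called interaction, by whether light raised, lowered or was not called for the gene in Δ80186 and in WT; red parts are positive and blue parts negative interactions. The longest bar holds the 750 genes raised in WT and not called in Δ80186, followed by 566 genes lowered in both strains and 528 lowered in WT and not called in Δ80186.

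How much of the response Δ80186 kept was measured on genes chosen in Δ21168, whose libraries enter neither response. Light raised 664 genes at least 2-fold in Δ21168. Their median light response was 0.53 in Δ80186 and 1.20 in WT on the log2 scale, and 356 of them (53.6%) were called in the interaction, 298 with a weaker and 58 with a stronger raising in Δ80186. Of the 298, 103 had a response below 0 in Δ80186, 72 kept less than 25% of the WT response, 76 kept 25% to 50% and 47 kept more. In 7 of the 103 the WT response was below 0 as well, so there WT had no raising to weaken. Light lowered 1298 genes at least 2-fold in Δ21168, with medians of -1.50 in Δ80186 and -1.92 in WT. Of these, 615 (47.4%) were called, 424 with a weaker and 191 with a stronger lowering in Δ80186. Among the 424, light left 126 higher than darkness did in Δ80186, 84 kept less than 25% of the WT response, 123 kept 25% to 50% and 91 kept more. In 10 of the 126 light left the gene higher in WT as well. The response estimate was weaker in Δ80186 for 73.6% of the 664 raised genes and for 63.9% of the 1298 lowered genes, where over all genes tested 51.2% of interactions were negative and 48.8% positive.

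Among genes raised by light in WT, with at least 30 reads in each group and 50 CPM in the highest, TrE1116C and TrE1044C had the largest negative interactions. TrE1116C had 7.06, 4.89 and 4.64 CPM in Δ80186 in light and 180, 147 and 119 CPM in Δ80186 in darkness, against 1950, 2060 and 2290 CPM in WT in light and 459, 529 and 469 CPM in WT in darkness. All Δ80186 libraries lay below all WT libraries, and within Δ80186 light lowered the gene where in WT it raised it. The interaction was -6.85 ± 0.39 (SE, n = 3 per group; adjusted p = 2.1e-08). In Δ21168 the gene rose with light as in WT, to 5140 ± 381 CPM in light, against 457 ± 207 CPM in darkness (SD, n = 3). TrE1044C had 2.02, 2.58 and 1.89 CPM in Δ80186 in light and 2.44, 2.93 and 7.37 CPM in Δ80186 in darkness, against 138, 102 and 90 CPM in WT in light and 1.24, 2.87 and 3.85 CPM in WT in darkness. WT in light stood far above the other 3 groups, whose values overlapped or lay close together. The interaction was -6.34 ± 0.60 (adjusted p = 1.3e-06; -5.70 without replicate 3 of Δ80186 in darkness).

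Some genes raised by light in WT were raised further in Δ80186, and the largest positive interactions among them were those of TrB0209C and TrD1308C. TrB0209C had 3290, 3760 and 3630 CPM in Δ80186 in light and 1.39, 1.79 and 2.77 CPM in Δ80186 in darkness, against 498, 577 and 698 CPM in WT in light and 22.4, 4.73 and 7.12 CPM in WT in darkness. Δ80186 lay above WT in light and below it in darkness, with no overlap in either condition. The interaction was 5.13 ± 0.67 (adjusted p = 5.2e-05; 4.18 without replicate 1 of WT in darkness). TrD1308C had 1230, 1210 and 1170 CPM in Δ80186 in light and 1.12, 1.34 and 1.68 CPM in Δ80186 in darkness, against 79, 92.7 and 80.8 CPM in WT in light and 2.14, 0.775 and 0.654 CPM in WT in darkness. Here the strains overlapped in darkness and parted in light alone, and the interaction was 3.66 ± 0.47 (adjusted p = 2.5e-05; 2.91 without replicate 1 of WT in darkness).

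TrE0110C and TrF0378C had the largest positive interactions of the genes that light lowered in WT, under the same minimum. TrE0110C had 13.8, 15.9 and 15 CPM in Δ80186 in light and 57.2, 57 and 47.1 CPM in Δ80186 in darkness, against 2.76, 3.09 and 3.01 CPM in WT in light and 653, 579 and 646 CPM in WT in darkness. The level in Δ80186 was the higher one in light and the lower one in darkness, and light still lowered the gene in both strains (interaction 5.86 ± 0.20, adjusted p = 3.5e-12). TrF0378C had 73.7, 60.1 and 54.7 CPM in Δ80186 in light and 6.55, 9.51 and 10.1 CPM in Δ80186 in darkness, against 5.88, 13.6 and 16.3 CPM in WT in light and 122, 86.4 and 65.9 CPM in WT in darkness. Its response was turned round, with light raising it in Δ80186 and lowering it in WT (interaction 5.77 ± 0.46, adjusted p = 3.3e-07).

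A stronger lowering in Δ80186 was seen for TrD0040C and TrG1197C. TrD0040C had 1.78, 1.87 and 1.12 CPM in Δ80186 in light and 56.6, 56.9 and 69.2 CPM in Δ80186 in darkness, against 6.62, 10.4 and 13.9 CPM in WT in light and 36.4, 39.2 and 36.1 CPM in WT in darkness (interaction -3.41 ± 0.30, adjusted p = 1.3e-07). TrG1197C had 12.3, 17.6 and 15.5 CPM in Δ80186 in light and 137, 139 and 213 CPM in Δ80186 in darkness, against 80.2, 81.6 and 65.2 CPM in WT in light and 86.1, 132 and 97.5 CPM in WT in darkness. Light lowered it clearly in Δ80186, and in WT the response only just passed the threshold (log2 fold change -3.43 in Δ80186 and -0.47 in WT; interaction -2.96 ± 0.29, adjusted p = 1.8e-06).

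Genes not called for light in WT but responsive in Δ80186 included TrE0643W, TrB0109W, TrC0176C and TrD1156W. TrE0643W had 5.28, 5.69 and 4.47 CPM in Δ80186 in light and 83.9, 107 and 152 CPM in Δ80186 in darkness, against 128, 155 and 130 CPM in WT in light and 101, 138 and 124 CPM in WT in darkness. Only Δ80186 in light stood apart, and the other 3 groups overlapped (interaction -4.66 ± 0.33, adjusted p = 7.1e-08). TrB0109W had 3.72, 4 and 3.52 CPM in Δ80186 in light and 85.3, 73 and 56 CPM in Δ80186 in darkness, against 5.42, 6.62 and 6.81 CPM in WT in light and 4.7, 7.28 and 13.4 CPM in WT in darkness. For this gene the group that stood apart was Δ80186 in darkness (interaction -3.83 ± 0.41, adjusted p = 3.0e-06), and Δ21168 showed a like contrast, with 5.17 ± 0.65 CPM in light and 84.1 ± 12.9 CPM in darkness (SD, n = 3).

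TrC0176C had 63.2, 83.8 and 97 CPM in Δ80186 in light and 8.51, 3.32 and 1.39 CPM in Δ80186 in darkness, against 6.34, 14.9 and 23.8 CPM in WT in light and 24.1, 46.9 and 70.1 CPM in WT in darkness. Its libraries spread widely within 3 of the groups, and the interaction of 5.83 ± 1.22 (adjusted p = 0.002) was 6.71 without replicate 1 of Δ80186 in darkness. TrD1156W had 57.4, 48.9 and 46.5 CPM in Δ80186 in light and 2.65, 1.91 and 2.99 CPM in Δ80186 in darkness, against 12.4, 21.4 and 17.6 CPM in WT in light and 6.84, 9.37 and 25.4 CPM in WT in darkness. The WT groups overlapped and the Δ80186 groups lay on either side of them (interaction 4.03 ± 1.02, adjusted p = 0.0064; 3.25 without replicate 3 of WT in darkness).

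**Figure D3:**
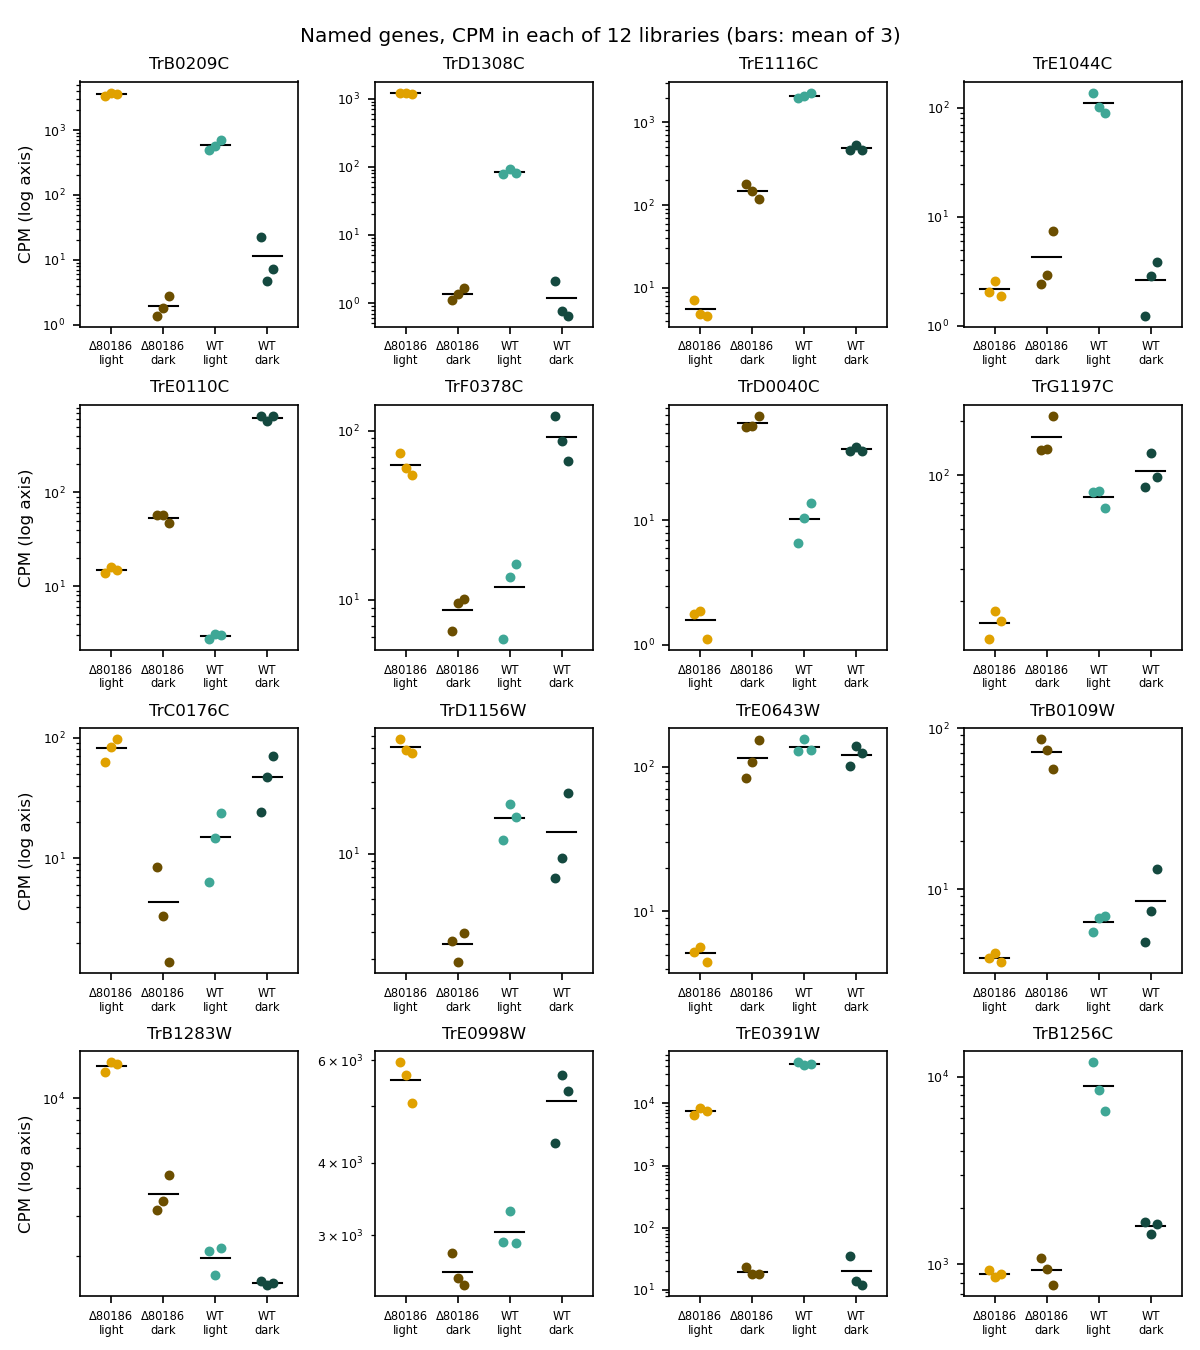
CPM on a log axis in each library of Δ80186 in light, Δ80186 in darkness, WT in light and WT in darkness for 16 named genes; points are libraries and bars are means of 3. For TrE0643W the 3 libraries of Δ80186 in light lie at 4.47 to 5.69 CPM and the other 9 libraries at 83.9 to 155 CPM, whereas for TrB0109W the libraries of Δ80186 in darkness lie apart at 56 to 85.3 CPM.

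The interaction also touched the most abundant transcripts. In absolute CPM the largest shortfall in Δ80186 was that of TrE0391W, which had 6610, 8530 and 7490 CPM in Δ80186 in light and 23.1, 17.7 and 17.5 CPM in Δ80186 in darkness, against 46000, 41400 and 43200 CPM in WT in light and 34.9, 13.8 and 11.7 CPM in WT in darkness. Light raised it strongly in both strains, by 8.60 on the log2 scale in Δ80186 and 11.08 in WT (interaction -2.48 ± 0.58, adjusted p = 0.004; -3.13 without replicate 1 of WT in darkness). TrB1256C had 932, 858 and 885 CPM in Δ80186 in light and 1080, 941 and 774 CPM in Δ80186 in darkness, against 11900, 8440 and 6530 CPM in WT in light and 1680, 1450 and 1650 CPM in WT in darkness. Light had no called effect on it in Δ80186 (adjusted p = 0.82), and WT in light lay above all other groups (interaction -2.55 ± 0.29, adjusted p = 7.7e-06).

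In the other direction, TrB1283W had 13000, 14400 and 14100 CPM in Δ80186 in light and 3180, 3500 and 4570 CPM in Δ80186 in darkness, against 2090, 1640 and 2160 CPM in WT in light and 1540, 1480 and 1520 CPM in WT in darkness. Δ80186 lay above WT in both conditions, and by more in light (interaction 1.51 ± 0.19, adjusted p = 7.6e-06). In Δ21168 light lowered this gene, to 3840 ± 432 CPM in light, against 7240 ± 952 CPM in darkness (SD, n = 3). TrE0998W had 5950, 5650 and 5060 CPM in Δ80186 in light and 2800, 2530 and 2460 CPM in Δ80186 in darkness, against 2920, 3300 and 2910 CPM in WT in light and 4320, 5670 and 5320 CPM in WT in darkness, an opposite response in the 2 strains (interaction 1.84 ± 0.23, adjusted p = 1.5e-05).

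The share of called genes and the balance of signs varied with the level. Among the 2270 genes of highest mean level (102 CPM and more over the 12 libraries), 1205 were called (53.1%), 757 positive and 448 negative. Among the 2270 of lowest level (up to 9.72 CPM), 620 were called (27.3%), 244 positive and 376 negative. Positive calls also prevailed at high and negative calls at low level with DESeq2 size factors (828 positive and 391 negative at high level, 256 positive and 350 negative at low level) and with library totals (683 positive and 514 negative, 233 positive and 395 negative). Among the 100 most abundant genes, 54 were called, 39 positive and 15 negative. Fewer reads also give fewer calls, and how far that sets the lower share at low level was not tested.

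The 747 genes with a positive interaction of at least 2-fold took 12.3% ± 0.2 of all counts in Δ80186 in light and 10.4% ± 0.12 in Δ80186 in darkness, against 4.17% ± 0.24 in WT in light and 11.7% ± 0.15 in WT in darkness (SD, n = 3 each). The 735 genes with a negative interaction of this size took 3.45% ± 0.23 in Δ80186 in light and 4.69% ± 0.096 in Δ80186 in darkness, against 12.8% ± 0.42 in WT in light and 4.43% ± 0.067 in WT in darkness. For both sets WT in light was the group that stood apart, and Δ80186 in light lay closer to the dark levels of both strains. TrE0391W made up 4.11% to 4.45% of the counts of WT libraries in light, and without it the negative set took 2.55% to 2.85% in Δ80186 in light, against 8.14% to 8.9% in WT in light. The sets were chosen by this contrast, so these shares describe its weight in the libraries and are not a test.

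**Figure D4:**
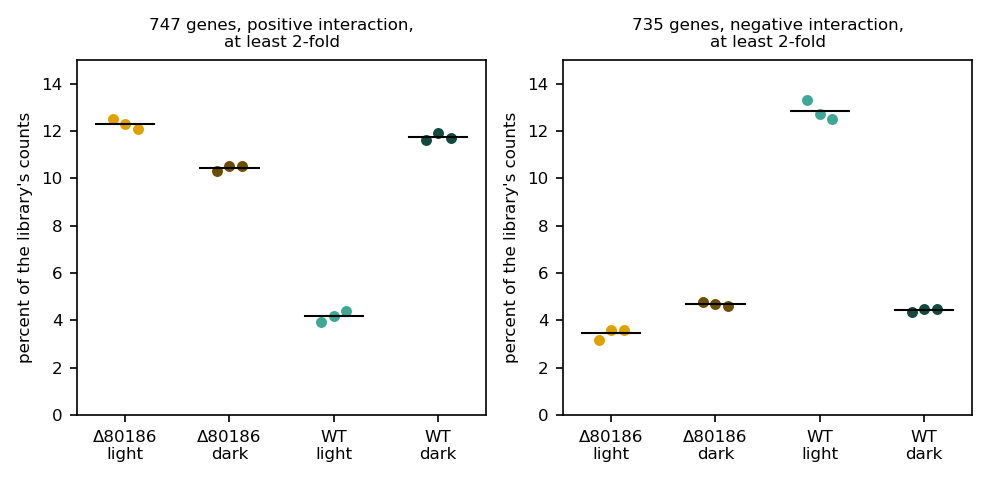
Percent of each library's counts that fell on the 747 genes with a positive (left) and the 735 genes with a negative interaction (right) of at least 2-fold; points are libraries and bars are means of 3. Positive genes took 4.17% in WT in light against 10.4% to 12.3% in the other groups, and negative genes took 12.8% in WT in light against 3.45% to 4.69% in the other groups.

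The same 4 groups can be read as the effect of the deletion in each light condition. Δ80186 differed from WT in 5328 genes in light (58.7%) and in 3154 genes in darkness (34.7%). Of the 3798 genes with an interaction, the deletion was called in light and not in darkness in 2109 (55.5%) and in darkness and not in light in 525 (13.8%). Over all 9079 genes tested, 1435 were higher and 1801 lower in Δ80186 in light alone. In darkness alone, 496 of all genes tested were higher and 566 lower in Δ80186. Of the 3798 genes, the deletion was called in both conditions and in the same direction in 590 (15.5%), and in opposite directions in 486 (12.8%). Over all genes tested, 869 were higher and 737 lower in Δ80186 in both conditions. On the 3798 genes the median size of the deletion effect was 0.70 in light and 0.25 in darkness on the log2 scale. Over all genes tested the medians were 0.46 in light and 0.24 in darkness. The effect was the larger one in light in 78.7% of the 3798, against 67.4% over all genes tested. Of the 486 genes with opposite effects, 246 were lower in Δ80186 than in WT in light and higher in darkness, and 240 were higher in light and lower in darkness. Opposite effects add up in this contrast, and every tested gene with such opposite calls had a called interaction.

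Because the contrast is on the log scale, it was set beside the difference of differences in mean CPM. The signs differed in 88 of the 3798 called genes (2.32%), 66 of them positive on the log scale and negative in CPM.

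The genes of this contrast were next looked at in Δ21168, the other deletion mutant. Of the 1346 genes raised by light in WT with a negative interaction, light raised 924 (68.6%) in Δ21168, a share near the 65% of all 2947 genes raised in WT. Of the 1226 genes lowered in WT with a positive interaction, light lowered 809 (66%) in Δ21168, against 65.7% of all 2596 genes lowered in WT. For the 373 genes lowered in Δ80186 with no call in WT, Δ21168 showed a lowering in 146 (39.1%) and a raising in 52 (13.9%). For the 445 genes raised in Δ80186 with no call in WT, light lowered 129 (29%) and raised 123 (27.6%) in Δ21168. Among all 3536 genes with no call in WT, 22.6% were lowered and 20.5% raised in Δ21168. These shares are descriptions, and the difference between the mutants was not tested here. In the column headers the Δ21168 libraries carry numbers from a separate range, far from those of the WT and Δ80186 libraries. The headers do not say what the numbers stand for. Differences in level between Δ21168 and the other strains cannot be told apart from any difference that goes with these numbers. Of the named genes, TrF0378C was raised by light in both mutants (log2 fold change 2.04 in Δ21168, adjusted p = 0.0021), TrG1197C and TrB0109W were lowered in both (-2.46 and -4.03 in Δ21168), and TrB1256C had no called response in either (-0.19 in Δ21168, adjusted p = 0.43). The levels of TrF0378C differed between the mutants. It averaged 6.99 CPM in light and 1.79 CPM in darkness in Δ21168, against 62.83 and 8.735 CPM in Δ80186 and 11.91 and 91.32 CPM in WT. Light raised TrE1116C, TrE1044C, TrB0209C, TrD1308C and TrE0391W in Δ21168 and in WT, by 3.49, 4.60, 4.64, 3.45 and 7.69 in Δ21168. In light TrE1116C and TrE0391W averaged 5140 and 64000 CPM in Δ21168, against 2099 and 43530 CPM in WT. TrE1044C, TrB0209C and TrD1308C averaged 12.5, 57.1 and 3.7 CPM in Δ21168 in light, against 110.1, 590.8 and 84.16 CPM in WT. TrE0110C and TrE0998W were lowered in both strains, with log2 fold changes of -0.76 and -0.57 in Δ21168. TrE0110C shared only the direction with WT (-7.72). It averaged 2.25 CPM in light and 3.91 CPM in darkness in Δ21168, against 2.95 and 625.8 CPM in WT. Light lowered TrB1283W in Δ21168 (-0.91) and raised it in Δ80186 and WT. TrD0040C (-0.33), TrC0176C (-0.24), TrD1156W (1.15) and TrE0643W (-0.40) had no called response in Δ21168.

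Called genes were spread over all 7 letters of the identifiers, at 40.8% to 44.1% of the genes tested under a letter, and interactions of at least 2-fold at 15% (letter A) to 20.4% (letter F). Genes with neighbouring numbers often shared the sign. Of 7805 pairs of tested genes with consecutive numbers, both had an interaction of at least 2-fold with the same sign in 227 and with opposite signs in 75. After a gene with a positive interaction of this size, the next was positive in 18% of pairs and negative in 6.56%, where 8.23% and 8.1% of all genes tested were positive and negative. After a negative gene the next was negative in 19% and positive in 5.67%. Pairs of the same sign made up 3.43% of the 3179 pairs with the same ending (W or C) and 2.55% of the 4626 pairs with different endings. Reads shared between overlapping neighbours could add to such pairs, and their part was not tested.

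Runs of 3 or more consecutive identifiers that all had an interaction of at least 2-fold with the same sign numbered 11 for positive (37 genes) and 17 for negative (55 genes). The longest negative run had 5 identifiers, TrC1159C to TrC1163C. Its interactions were between -4.40 and -2.10, and light raised all 5 in WT, by 2.50 to 3.73 on the log2 scale, against -1.40 to 1.24 in Δ80186. It held abundant and scarce transcripts: its highest member averaged 1280 CPM in Δ80186 in light and 954 CPM in Δ80186 in darkness, against 4370 CPM in WT in light and 758 CPM in WT in darkness, while TrC1159C averaged under 2 CPM in every group. Of the 5 tested identifiers among the 3 on either side of this run, 4 had a called interaction as well: TrC1158C (0.54, adjusted p = 2.0e-04) and TrC1166C (3.01, adjusted p = 0.013) were positive, and TrC1164C (-0.79, adjusted p = 0.028) and TrC1165C (-1.57, adjusted p = 0.0024) negative. The longest positive runs had 4 identifiers, and there were 4 of them. The one with the largest mean interaction, a choice among ties made after the values were seen, ran from TrF0378C to TrF0381W. In its first 3 members light acted in opposite directions, raising them by 1.56 to 2.85 in Δ80186 and changing them by -2.92 to -2.30 in WT. TrF0381W was raised in both strains, by 6.47 in Δ80186 and 4.69 in WT (interaction 1.78, adjusted p = 0.0059). The 3 tested identifiers on either side of this run had no called interaction. Those after it, TrF0382C, TrF0383C and TrF0384W, averaged 0, 0.0593 and 0 CPM in Δ80186 in light. In WT in light they averaged 0, 0.0239 and 0 CPM. With so few reads an interaction could hardly be called, so they cannot show where the run ends.

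**Figure D5:**
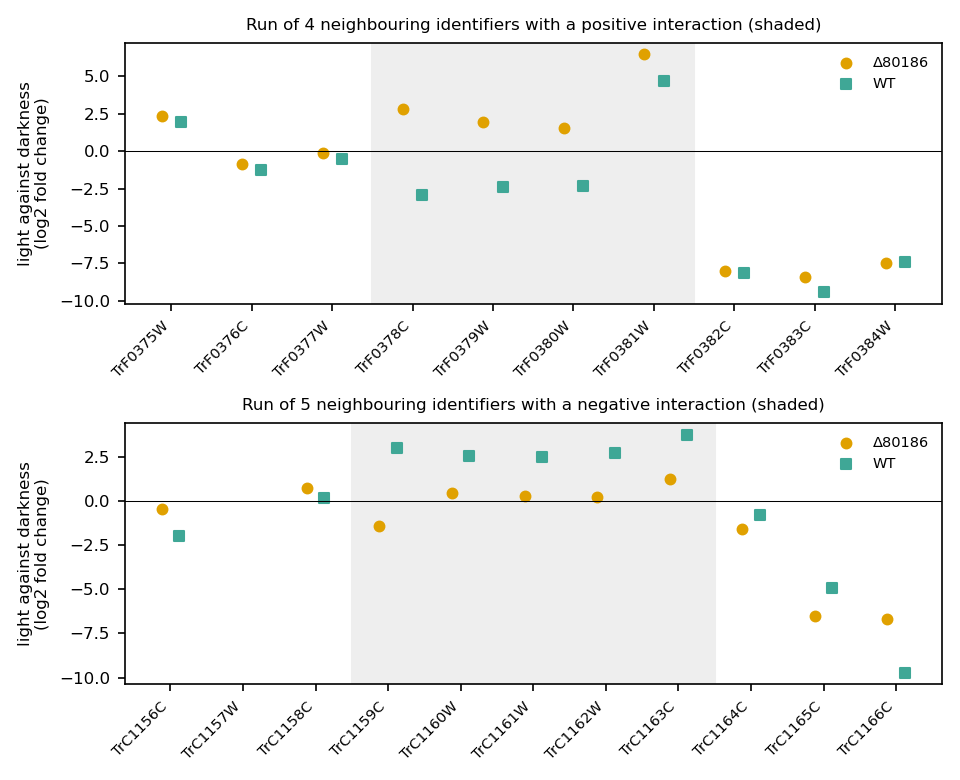
Log2 fold change of light against darkness in Δ80186 (circles) and WT (squares) along identifiers with consecutive numbers, for the positive run from TrF0378C to TrF0381W (top) and the negative run from TrC1159C to TrC1163C (bottom), each shaded, with 3 neighbours on either side. In the bottom panel the WT squares of the run lie between 2.50 and 3.73 and the Δ80186 circles between -1.40 and 1.24; the identifier with no points was not tested.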

How the data were processed

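RNA-seq libraries came, per the labels' protocols, from total RNA with depletion of ribosomal RNA and a strand-specific kit. HISAT2 2.2.1 served as aligner, per the submitters' processing notes. The deposited table holds raw whole-number counts per gene, 1 column per library, matched to samples by their descriptions. The treatment of strand and of reads with several alignments is not given in the sources used here, so overlapping or near-identical genes could share reads. The reference table (assembly GCF_000167675.1, 9116 genes) matched 0 row identifiers.

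The counts were tested with edgeR 4.0.16 in R 4.3.3: filterByExpr by group (minimum count 10, minimum total 15; 9079 of 10879 rows kept), TMM factors, robust dispersions and the quasi-likelihood F test. The model held the means of the 6 groups, was fitted on 18 libraries together and left 12 residual degrees of freedom. Standard errors are the absolute log2 value divided by the square root of F, and at low counts they can understate counting error. Benjamini-Hochberg adjustment ran over all genes tested. The median total over the 12 libraries of the 1800 genes not tested was 8 reads.

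Tested on simulated data for this contrast (9024 genes, 200 changed), the test found 81% of 2-fold and 89% of 4-fold interactions, and 3.41% of its calls were false. The changed genes had a mean of at least 20 reads per library, and equally many were raised and lowered. Calls of the wrong sign in changed genes were not counted as false. These rates therefore do not cover scarcer genes, or a contrast like the real one with 41.8% of genes called. Replicate libraries were not duplicates (chi-square per degree of freedom 4.37 to 48.7 over genes with at least 20 reads).

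Named identifiers had at least 30 reads in each of the 4 groups and at least 50 CPM in the highest, and were the 2 positive and 2 negative called genes with the largest interaction among genes raised, lowered or not called by light in WT. The 2 of each sign with the largest difference in CPM and the row that lost its reads in Δ80186 were added. Genes and lists were chosen with earlier results of these data known. Alternatives were other scalings, DESeq2 1.42.0, limma-voom (limma 3.58.1), other filters, the 12 libraries alone, a replicate block and leaving out each library.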

Additional observations from a re-analysis of the deposited data

Results flagged for a closer look

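Each called interaction is by its construction a difference between 2 strains in the same contrast, tested by the interaction term, and so 3798 genes stand here. Of the 16 called genes named above, the response to light in Δ80186 minus that in WT was positive on the log2 scale for TrB0209C (5.13), TrD1308C (3.66), TrE0110C (5.86), TrF0378C (5.77), TrC0176C (5.83), TrD1156W (4.03), TrB1283W (1.51) and TrE0998W (1.84). It was negative for TrE1116C (-6.85), TrE1044C (-6.34), TrD0040C (-3.41), TrG1197C (-2.96), TrE0643W (-4.66), TrB0109W (-3.83), TrE0391W (-2.48) and TrB1256C (-2.55). Groups of 3 libraries are too small for a test of single outlying libraries.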

How the results depend on the processing

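All 16 named called interactions kept their sign and passed the threshold in each of 20 alternative fits, and no gene called in the main test was called with the opposite sign in any of them. The number of called genes was 4406 in a fit of the 12 libraries alone and 3380 to 3613 with 1 library left out, and counts of at least 2-fold interactions were 1403 to 1494 with 1 library left out. The share of positive calls was 48.9%. It was 53.9% with DESeq2 size factors, 44.3% with library totals, 54.4% with DESeq2, 50.6% with a minimum count of 50, and 48.5% to 51.2% with 1 library left out, highest without WT replicate 3 in light. The majority sign thus turned with scaling, with the stricter filter and with a WT library in light left out. Requiring both responses to be at least 2-fold left 61 of the 585 opposite responses. With the replicate number as a block 3722 genes were called. Deviations of same-numbered libraries from their group means correlated at -0.114 to 0.145, with 2 of 18 pairs over 0.1, and 4 of 12 libraries correlated best with their own number. With 3 libraries per group, these values cannot decide whether same-numbered libraries were handled together. Depth limits the scarce genes: 307 of the called genes had fewer than 30 reads in a group. All 307 were among the 1482 genes with an interaction of at least 2-fold.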
